A study of Mus musculus with 2 samples.

Results

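Island-like distal regions are stretches of open chromatin that have the base composition of a CpG island but lie away from every annotated gene start. They were taken from DNase-seq of mouse hindbrain, in which DNase I cuts DNA that is not shielded by nucleosomes and the cut sites pile up into peaks. A region was shared when the merged peaks of both replicates held a peak of each. It was distal when it lay over 2000 bp from every start of an annotated transcript and touched no exon. It was island-like when its central 200 bp had a GC content of at least 60% and an observed/expected CpG ratio of at least 0.6. This ratio divides the number of CG pairs by the number that the C and G content alone would give. Of 136714 shared regions, 86148 were distal, and 897 of those met the sequence rule (1.04%). The remaining 85251 are called other distal regions. The same sequence rule was met by 13853 shared regions within 500 bp of a start, which are called island-like promoter regions.

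The series holds 1 group. Hindbrain, the part of the brain with the cerebellum, pons and medulla, was taken at birth (postnatal day 0) from mice of the strain B6NCrl, pooling both sexes, in 2 biological replicates. The replicates were different tissue samples under the same donor entry, and the sources used here do not give the number of animals in each. There is no second condition, so values are given for each replicate and set against other regions of the same libraries, and no p-value is given because regions are not replicates.

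CpG islands are stretches of GC-rich DNA that kept their CG pairs, which elsewhere in the mammalian genome were largely lost because methylated cytosine mutates easily. Most islands cover gene starts, are unmethylated and are free of tightly packed nucleosomes. Islands away from annotated starts, often called orphan islands, are known to include starts of unannotated transcripts, enhancers of developmental genes, targets of Polycomb repression and the control regions of imprinted genes.

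The sequences show what the rule selects. The central 200 bp of 4 of the 10 regions with the highest scores are printed below, on the + strand of mm10 (RefSeq GRCm38.p6 genome), with every CG pair in capitals. The first holds 28 CG pairs, the second and the third 23 each, and the last 13.
Region upstream of Ptma, chr1:86487471-86487670: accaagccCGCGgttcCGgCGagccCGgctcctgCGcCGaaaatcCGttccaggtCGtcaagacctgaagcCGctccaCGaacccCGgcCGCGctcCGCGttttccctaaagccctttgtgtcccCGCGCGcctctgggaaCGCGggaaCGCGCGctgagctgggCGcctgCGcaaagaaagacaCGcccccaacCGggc
Region upstream of Bbc3, chr7:16299731-16299930: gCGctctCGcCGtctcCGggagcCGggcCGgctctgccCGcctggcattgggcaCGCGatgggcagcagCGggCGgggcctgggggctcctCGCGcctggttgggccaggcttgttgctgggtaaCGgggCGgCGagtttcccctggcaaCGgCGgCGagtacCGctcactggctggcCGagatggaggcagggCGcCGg
Region downstream of Ccne1, chr7:38084971-38085170: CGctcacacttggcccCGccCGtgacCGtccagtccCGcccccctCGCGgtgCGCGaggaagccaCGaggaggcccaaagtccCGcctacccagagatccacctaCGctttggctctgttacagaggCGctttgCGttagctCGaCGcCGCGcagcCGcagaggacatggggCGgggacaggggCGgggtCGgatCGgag
Region in an intron of Creb3l1, chr2:92008371-92008570: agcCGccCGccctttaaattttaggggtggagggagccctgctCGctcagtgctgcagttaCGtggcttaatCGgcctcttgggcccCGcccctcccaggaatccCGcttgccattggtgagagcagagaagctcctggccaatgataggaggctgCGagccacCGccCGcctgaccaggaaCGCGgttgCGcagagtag
All 4 have CG pairs spread along the window. Over the 897 members the window held a median of 17 CG pairs (range 8 to 39), against 3 in other distal regions and 20 in island-like promoter regions. The median GC content was 66% in members, 49% in other distal regions and 69% in island-like promoter regions, and the median CpG ratio was 0.779, 0.229 and 0.883 in the same order. The first and last of these groups met the same rule, so these values describe the selection.

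The libraries differed in size. After removal of unplaced and mitochondrial sequence there were 270757 peaks in replicate 1 and 171790 in replicate 2. Each peak carries a score from the authors, a whole number from 1 to 150 in replicate 1 and from 1 to 147 in replicate 2, whose meaning and scaling are not given. It was used to rank peaks within a list. Read depth is unknown. As a check of the tissue label, 13 of 13 hindbrain and cerebellar marker genes (among them En1, En2, Hoxb1 and Atoh1) carried a promoter peak in each replicate, against 4 of 8 forebrain, 2 of 5 endothelial, 1 of 5 liver, 1 of 5 microglial, 1 of 5 erythroid and 0 of 5 skeletal muscle markers.

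Island-like distal regions held strong peaks. The highest peak in a member had a median score of 101 in replicate 1 (middle 50% of members 80 to 119, range 22 to 148) and 72 in replicate 2 (53 to 95, range 15 to 138). Other distal regions had medians of 59 (44 to 79) and 39 (30 to 55). Island-like promoter regions had medians of 122 (94 to 137) and 98 (62 to 120). Members therefore lay between both comparison sets, and the sets overlapped: 93.3% of other distal regions in replicate 1 and 89.3% in replicate 2 scored at or below the member median, while 22.4% and 22.7% of members scored at or above the promoter median. In a bulk tissue a lower score at a region open in few cells cannot be told apart from a region that is weakly open in many.

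Ranked among all peaks of the same replicate, the median member stood at percentile 91.3 in replicate 1 and 83.8 in replicate 2. Other distal regions stood at 67.7 and 51.1, and island-like promoter regions at 96.1 and 93.3. The difference from other distal regions averaged 28.2 percentile points over both replicates. It was 13.7 points when only peaks at or above the median score of each list were used. Percentiles were still those of the full lists there, so the cut takes low values out of both sets and can itself narrow the difference. The top 10% of scores included 489 members in replicate 1 (54.5%, exact binomial 95% interval 51.2 to 57.8) and 329 in replicate 2 (36.7%, 33.5 to 39.9), against 9.04% and 4.10% of other distal regions. The lower 50% of scores included 21 members (2.34%) and 85 members (9.48%), against 25.5% and 48.6% of other distal regions. The replicates ordered the members alike, with a Spearman's rho of 0.946 over 897 regions of these 2 libraries. The score was higher in replicate 1 at 892 members, against 96.0% of other distal regions, and with its scaling not given this is no measure of a change.

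The broader hotspots around members were also wide. The hotspot that held a member had a median width of 794 bp in replicate 1 and 673 bp in replicate 2, against 321 and 270 bp for other distal regions and 1339 and 1187 bp for island-like promoter regions. The highest −log10 q of a hotspot in the authors' tables is 100, and 91.9% and 71.6% of members lay in a hotspot at this value. The same held for 61.96% and 36.97% of other distal regions, and for 34.8% and 33.96% of all hotspots. A value of 100 did not mark strong peaks alone. The lowest-scoring members lay near Gm5796 (scores 22 and 15), Gm3298 (24 and 17) and Gm10139 (27 and 17). Their hotspots of 72 to 74 bp were at 100 in both replicates. A member near Gm10128 (29 and 25) had 3.39 and 2.39.

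**Figure D1:**
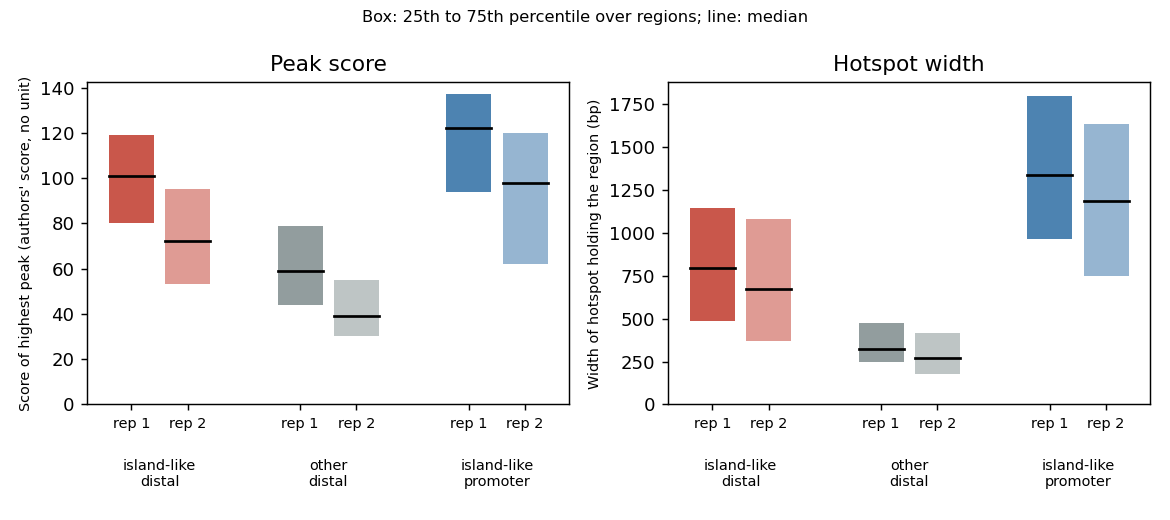
Score of the highest peak (left, no unit) and width of the hotspot (right, bp) for island-like distal, other distal and island-like promoter regions in each replicate. Boxes run from the 25th to the 75th percentile over regions and lines mark medians: in both replicates members (score medians 101 and 72) lie above other distal regions (59 and 39) and below island-like promoter regions (122 and 98).

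Members recurred between the replicates. When the rule was applied to the union of both peak lists without asking for a peak of each replicate, 1253 regions met it and 897 of them (71.6%, exact binomial 95% interval 69.0 to 74.1) had both. For other distal regions the share was 43.99% of 193797, and for island-like promoter regions 77.9% of 17790. Among the rest, 309 regions were found in replicate 1 alone, with a median score of 54, and 47 in replicate 2 alone, with a median of 42. Both medians lie below those of the members. The difference of 27.6 percentage points from other distal regions was 17.8 points with the stronger peaks of each list.

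Within GC-rich distal regions, score and recurrence were higher where more CG pairs were kept. Distal shared regions with GC of at least 60% and a CpG ratio under 0.2, which hold GC-rich sequence with few CG pairs, had median percentiles of 82.8 and 67.4 in replicates 1 and 2. These were 90.3 and 83.2 at ratios of 0.6 to 0.8, 91.95 and 84.1 at 0.8 to 1, and 94.5 and 89.1 at ratios of 1 or more. The share found in both replicates was 55.03% in the lowest of these classes, 69.5% at 0.6 to 0.8, 73.8% at 0.8 to 1 and 75.4% in the highest. A high ratio without high GC went with lower scores: distal regions under 60% GC with a ratio of 0.6 to 0.8 had percentiles of 68.6 and 54.5. Both GC content and CG pairs thus moved with the score, and the part of sequencing bias by GC content was not tested.

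**Figure D2:**
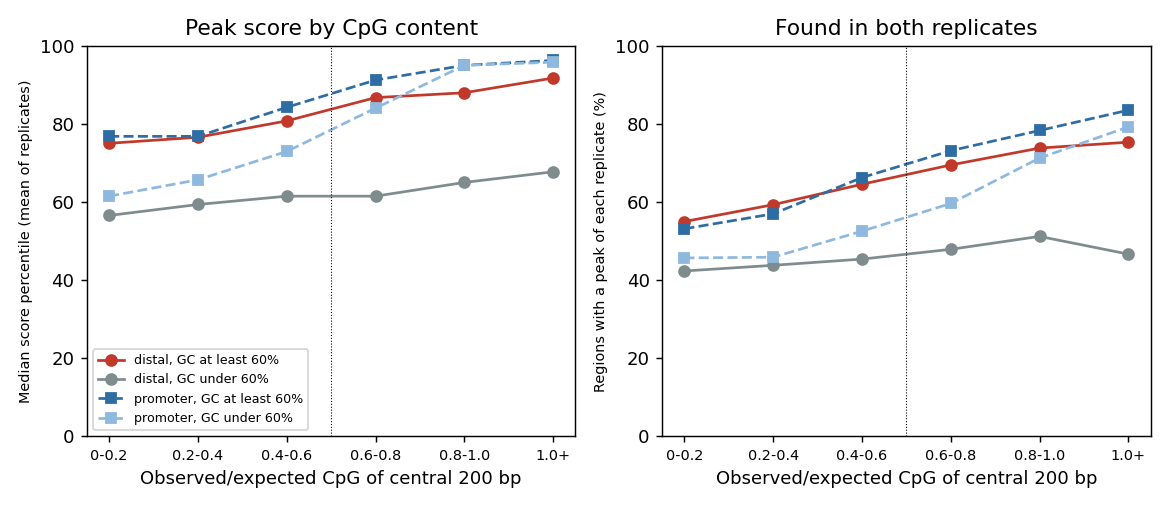
Median score percentile averaged over the replicates (left) and share of union regions with a peak of each replicate (right, %) by observed/expected CpG ratio, for distal (solid lines) and promoter regions (dashed lines) above and below 60% GC. The dotted line marks the ratio of 0.6; among distal regions with GC of at least 60% the share in both replicates was 55.03% in the lowest class and 75.4% in the highest.

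Scores just inside and just outside each threshold of the rule were close. Members with 60 to under 61% GC had median scores of 93 and 64 (100 regions), and regions just outside, with 59 to under 60%, had 87 and 62 (85 regions). Members with a ratio of 0.60 to under 0.65 had 96 and 68 (141 regions), against 91 and 65.5 for those at 0.55 to under 0.60 (154 regions). Members within 500 bp beyond the 2000 bp limit had 98.5 and 68.5 (62 regions), against 97 and 68 for regions within 500 bp inside it (97 regions).

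Among the members themselves, those with more CG pairs scored somewhat higher. The 192 members with 8 to 13 pairs had median scores of 94 and 67, and the 197 with 22 or more had 110 and 77. Across members the Spearman's rho of score with the number of CG pairs was 0.18 in replicate 1 and 0.11 in replicate 2, so the spread at any CpG content was wide. Distance to the nearest start went with score hardly at all (rho −0.047 and −0.050).

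Members lay nearer to starts and more often between genes than other distal regions. The median distance to the nearest start of any transcript was 8738 bp, against 16978 bp for other distal regions, and 264 members (29.4%) lay 2 to 5 kb away, against 15.96%. A further 226 lay at 5 to 10 kb, 203 at 10 to 20 kb, 157 at 20 to 50 kb, 36 at 50 to 100 kb and 11 beyond that. Introns held 268 members (29.9%, exact binomial 95% interval 26.9 to 33.0) and 50.4% of other distal regions. Intronic members had median scores of 97 and 66 and intergenic members 104 and 75. Relative to the nearest protein-coding gene, 447 members (49.8%) lay upstream of it, 281 (31.3%) downstream and 169 (18.8%) inside it, against 43.7%, 26.2% and 30.1% of other distal regions. A promoter peak of each replicate was found at that gene for 82.3% of members and 83.0% of other distal regions.

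A part of the members lay at starts that another annotation records. The distances above use GENCODE M21. In RefSeq, which also holds predicted transcripts, a transcript began within 500 bp of 123 members (13.7%), against 2.14% of other distal regions, and for 23 members (2.56%) this was a curated transcript. A RefSeq start lay within 2000 bp of 221 members (24.6%), and a RefSeq exon overlapped 157 (17.5%). The 647 members clear of RefSeq starts and exons (72.1%) had median scores of 103 and 74, close to the 104 and 74 of the 123 at a RefSeq start.

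The 10 members with the highest scores had scores of 141 to 148 in replicate 1 and 130 to 138 in replicate 2, above the promoter medians. They included 9 intergenic regions, and 1 lay within 500 bp of a RefSeq start. The first lay 39155 bp upstream of Ptma, which encodes the nuclear protein prothymosin alpha, at chr1:86487456-86487685, with scores of 147 and 137 in replicates 1 and 2. The next lay 5994 bp upstream of Cirbp, a cold-induced RNA-binding protein (chr10:80159916-80160065, 145 and 138). It was followed by a region 8562 bp upstream of Bbc3, which encodes the cell death protein PUMA (chr7:16299756-16299905, 148 and 134). All 3 therefore stood near the top of both lists.

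The other 7 lay near genes of several kinds. Kdm5b, a histone H3K4 demethylase, and Arid1a, a subunit of the BAF chromatin remodelling complex, are chromatin regulators: their regions lay 3110 and 57082 bp upstream and scored 146 and 133 at Kdm5b and 144 and 133 at Arid1a. Creb3l1, a transcription factor held in the endoplasmic reticulum, had its region in an intron (142 and 137). Nr4a1, a nuclear receptor induced early after stimulation, had one 7828 bp upstream (146 and 130). Wnt7b, a secreted Wnt ligand, had one 52198 bp upstream (143 and 135), and this is the region at a RefSeq start. The last 2 lay downstream of Ccne1, which encodes cyclin E1 (148 and 131), and 2379 bp upstream of Rabepk, a partner of the Rab9 GTPase (141 and 137).

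The 5 members in the widest hotspots lay at 4 genes. A member 2686 bp upstream of Pcdh7, a protocadherin, lay in hotspots of 5956 and 5986 bp in replicates 1 and 2. A member 2162 bp upstream of Spry2, an inhibitor of FGF signalling, lay in hotspots of 4808 and 3298 bp. Fat1, an atypical cadherin, held 2 members in one hotspot of 2543 and 4595 bp, and both lie within 500 bp of a RefSeq start. Maml3, a coactivator of Notch targets, held a member in hotspots of 2832 and 3837 bp.

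The members with the highest CpG ratios were not the strongest. The highest ratio, 1.55, belonged to a region in an intron of Rnf213, a ubiquitin ligase, with scores of 67 and 40. The next, 1.37, belonged to chr12:109528276-109528445, with scores of 63 and 43 and hotspots of 259 and 168 bp. It lies 64939 bp beyond the end of Dlk1 and 12555 bp before the start of Meg3, 2 imprinted genes whose shared interval is known to hold the control region that is methylated on the paternal chromosome. The other 3 lay near Hook2, an adaptor of the motor protein dynein (1.29, 123 and 101), near 1700001O22Rik (1.29, 88 and 46) and near Sec61a1, a subunit of the protein translocation channel (1.28, 126 and 90). The first 2 of the 5 and the 1700001O22Rik region thus scored below the member medians of 101 and 72. The Hook2 and Sec61a1 regions scored above these medians. The central 32 bases of the Rnf213 region occurred 3 times in the genome.

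Some members lay close together; the same count was not made for other distal regions. With gaps of up to 5 kb, 208 members (23.2%) fell into 90 loci of 2 or more, the largest with 7, and with gaps of up to 50 kb, 337 members fell into 134 loci, the largest with 16. By nearest protein-coding start, 687 genes had at least 1 member. Of these, 550 had 1, 102 had 2 and 35 had 3 or more.

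Bcor had the most. It encodes the BCL6 corepressor, a subunit of a variant Polycomb complex, and lies on chromosome X at 12036740 to 12160355 on the − strand. Of 54 distal regions nearest to it, 21 were members, 16 of them in introns. Their scores ran from 38 to 105 in replicate 1 and from 35 to 70 in replicate 2, with medians of 78 and 48, below the medians of all members. The 33 other distal regions at Bcor had medians of 61 and 37. Cbx8, a chromodomain subunit of Polycomb repressive complex 1, had 7 members among its 11 distal regions. Their scores ran from 79 to 138 and from 49 to 122, with medians of 88 and 56, and its 4 other distal regions had medians of 82.5 and 59.5. At Cbx8 the members thus did not stand above their neighbours in replicate 2.

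**Figure D3:**
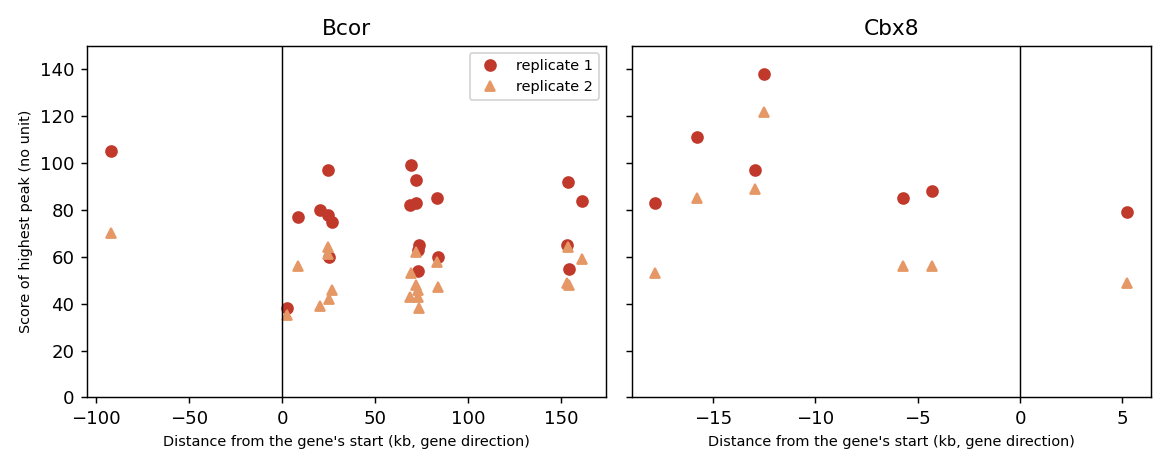
Scores of each island-like distal region nearest to Bcor (21 regions, left) and Cbx8 (7 regions, right) by distance from the gene's start in kb, positive in the direction of transcription, for replicate 1 (circles) and replicate 2 (triangles). At Bcor the scores reach 105 and 70, and at Cbx8 138 and 122.

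The other genes with the most members were Psd2, an exchange factor for the GTPase Arf6, with 9 of its 35 distal regions (scores 54 to 128 and 34 to 113), and Gm21860 on chromosome Y with 5 of 16. Each of 8 genes had 4. Neurod2, a proneural bHLH factor, had 4 of 10 (80 to 131 and 52 to 102). Chd7, a chromatin remodeller, had 4 of 26 (77 to 136 and 49 to 122), and Nr2f2, an orphan nuclear receptor, 4 of 34 (59 to 101 and 33 to 73). The others were Gse1 (4 of 44), Ppara, a nuclear receptor of fatty acid metabolism (4 of 18), Spag6, a protein of motile cilia (4 of 11), Cstad (4 of 26) and 1700001O22Rik (4 of 13).

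Genes for transcription factors were frequent neighbours. Over 5 lists of transcription factor families, 130 members (14.5%) had a listed gene as nearest, against 4.32% of other distal regions. Homeobox genes, which pattern the embryo, accounted for 47 members at 32 of 148 genes (5.24% of members, against 1.43% of other distal regions). Irx5 and Pou3f3 had 3 each: scores at Irx5 ran from 83 to 93 and from 54 to 63, and at Pou3f3 from 91 to 113 and from 67 to 81. Dlx2, with 2, had scores of 84 to 109 and 67 to 76. Over all 47 the scores ran from 43 to 118 in replicate 1 and from 35 to 101 in replicate 2, short of the highest members.

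Basic helix-loop-helix genes, which drive or hold back neuronal differentiation, had 24 members at 16 of 49 genes (2.68%, against 0.594% of other distal regions). Besides Neurod2, Id2 and Id3, whose products block bHLH factors, had 3 each, with scores of 92 to 117 and 67 to 86 at Id2 and 119 to 126 and 90 to 110 at Id3. Neurog2, a proneural gene, had 2. Sox and forkhead genes had 22 members at 16 of 63 genes (2.45%, against 0.893%), among them 2 at Foxe1, 2 at Foxi3, 2 at Foxk1 (117 to 128 and 107 to 117) and 2 at Foxo6. Zinc finger and nuclear receptor genes had 29 at 20 of 75 listed genes (3.23%, against 1.09%), among them 3 at Bcl11b (87 to 128 and 54 to 104). This list is partial: the nuclear receptor gene Ppara, with 4 members, is not in it. Genes of the NFI, Tbx, TFAP2 and Runx families had 8 at 5 of 27 (0.892%, against 0.312%), of which Tbr1 held 3 (73 to 112 and 48 to 93).

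Polycomb and other chromatin regulators had 48 members at 14 of 86 genes (5.35%, against 0.563% of other distal regions). Bcor and Cbx8 supplied 28 of these, and without Bcor the share was 27 members (3.08%, against 0.525%). Arid1a had 3 (126 to 144 and 108 to 133), all above the member medians in both replicates. These 3 lay close together, 56742 to 57442 bp from its start and 2135 to 2835 bp from the nearest start of any transcript. For the highest of them, that start belongs to the lincRNA Gm12974. Genes of signalling ligands and receptors had 19 members (2.12%, against 0.635%). They included 3 at Socs3, a feedback inhibitor of cytokine signalling (97 to 141 and 72 to 116), and 2 each at Dll4, a Notch ligand, Fgfr3, an FGF receptor, and Notch3.

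Axon guidance genes had 14 members (1.56%, exact binomial 95% interval 0.856 to 2.60, which holds the 1.18% of other distal regions), with 2 each at Efna2, Nrp2 and Robo3. Synapse and channel genes had 9 (1.00%, against 2.01%), of which 3 were at Shank2, a scaffold of the postsynaptic density. The 23 listed imprinted genes had 6 (0.669%, against 0.178%). Of these, 2 had Snrpn as nearest gene (94 to 111 and 68 to 99), 104182 to 251202 bp from its start. Cdkn1c, an inhibitor of the cell cycle that is also in the cell cycle list, had 2. Rtl1, the nearest protein-coding gene of the region between Dlk1 and Meg3, is not in the list of imprinted genes. Cell cycle genes had 6 (0.669%, against 0.413%) and ribosomal protein genes 3 (0.334%, against 0.307%). Liver, microglial, erythroid and skeletal muscle markers, 5 genes each, had 0 members, which allows a share of up to 0.410% (exact binomial bound). Other distal regions had shares of 0.0129%, 0.00587%, 0.00352% and 0.0211% for these lists, so counts of 0 do not set the members apart. Endothelial markers had 1 (0.111%, against 0.0680%), at Cdh5, the cadherin of vessel walls, with scores of 109 and 90. Nearest genes were assigned by distance along the genome alone.

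Chromosome X held 45 members (5.02%), against 2.03% of other distal regions, and 21 of them were those at Bcor. Members on X had median scores of 81 and 53, against 103 and 74 on autosomes, and the 24 not at Bcor had 87.5 and 56.5. Scores of all other distal regions on X were not set beside these, so the lower scores are not shown to be particular to members. The 5 members on Y (scores 75 to 104 and 61 to 87) had Gm21860 as the nearest protein-coding gene, 10300 to 13710 bp away, and for 3 of them the central 32 bases occurred more than once in the genome. Over all members this was so for 18 (2.01%). The 5 members with the lowest scores, 22 to 33 in replicate 1 and 15 to 25 in replicate 2, lay on chromosomes 12, 13 and 14, and 3 of them lay within 500 bp of a RefSeq start.

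Most island-like stretches away from promoters held no shared region. All windows of the genome that met the sequence rule were merged into stretches, 18712 distal and 19512 within 500 bp of a start. A shared region overlapped 1820 distal stretches (9.73%, exact binomial 95% interval 9.31 to 10.2) and 14196 promoter stretches (72.8%). Repeats made up much of the distal set: 13183 distal stretches were over 50% soft-masked, the lower-case marking of repeats in the genome file, and 27 of these (0.205%) held a shared region. Of the 5529 with at most 50% masking, 1793 did (32.4%, 31.2 to 33.7), against 73.8% of the 19201 such promoter stretches. The difference was −63.0 percentage points with all stretches, and −41.5 when masked stretches and shared regions over 50% masked were both left out. The part of read placement in repeats was not tested.

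Length moved with these shares. Among stretches with at most 50% masking, 24.005% of distal ones under 300 bp held a shared region, against 31.2% of promoter ones. The shares were 37.9% against 58.99% at 300 to under 500 bp, 63.7% against 89.1% at 500 to under 1000 bp, and 53.4% (42.5 to 64.1) of 88 distal stretches against 94.3% at 1000 bp or longer. The stretch around a member had a median length of 483 bp, against 905 bp around an island-like promoter region, and 425 members (47.4%) lay in a stretch of 500 bp or more, against 90.3%. By this length, members had median scores of 95 and 67 under 300 bp (107 members), 104 and 75 at 300 to under 500 bp (365), 106 and 74 at 500 to under 1000 bp (333) and 90.5 and 61.5 at 1000 bp or longer (92).

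**Figure D4:**
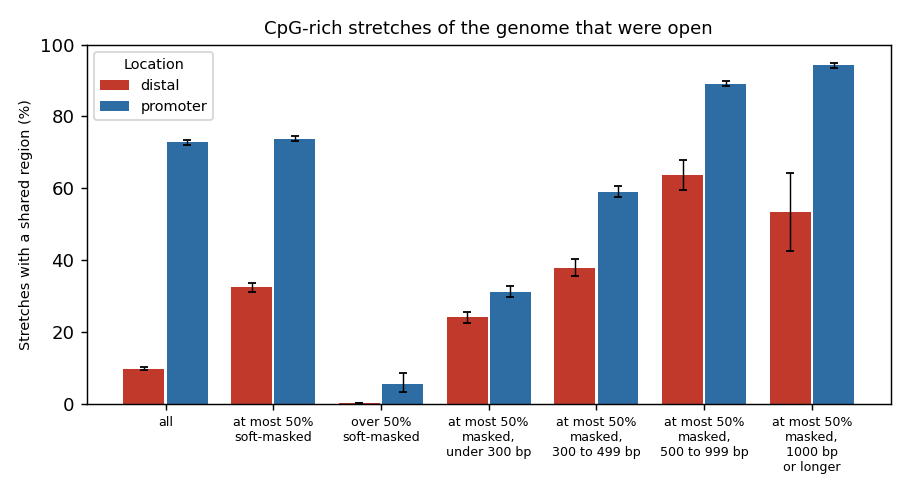
Share of CpG-rich stretches of the genome that held a shared region (%), for distal and promoter stretches, over all stretches, by repeat masking, and by length among those with at most 50% masking. Error bars are exact binomial 95% intervals: 9.73% of distal and 72.8% of promoter stretches held one, and 32.4% and 73.8% with at most 50% masking.

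Patterns bound by known factors were searched as letters on both strands of the central 200 bp. Examples of 6 patterns are printed on the + strand of mm10, with the match in capitals and 25 bases on each side; the match may read on either strand.
GC box upstream of Cirbp, chr10:80160057-80160113: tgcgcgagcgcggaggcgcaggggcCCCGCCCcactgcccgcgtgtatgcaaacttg
CTCF pattern downstream of Ccne1, chr7:38085008-38085069: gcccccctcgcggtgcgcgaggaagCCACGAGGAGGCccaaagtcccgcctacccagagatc
RFX pattern near Sox12, chr2:152406277-152406340: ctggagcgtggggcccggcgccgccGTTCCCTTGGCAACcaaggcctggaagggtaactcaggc
NRF1 pattern near Kcnn1, chr8:70865724-70865783: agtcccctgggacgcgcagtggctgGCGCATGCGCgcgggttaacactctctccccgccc
ETS pattern upstream of Wnt7b, chr15:85634632-85634688: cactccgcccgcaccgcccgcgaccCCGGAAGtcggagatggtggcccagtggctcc
CRE upstream of Rabepk, chr2:34802268-34802325: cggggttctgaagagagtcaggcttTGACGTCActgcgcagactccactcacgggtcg
A match is a description of the letters and not of binding. The patterns searched were GGGCGGG (GC box of SP and KLF factors), CCGGAAG (ETS), TGACGTCA (CRE, bound by CREB) and the longer consensus patterns of CTCF, RFX and NRF1, of which the capitals above show a match. Of 20 patterns in all, 8 hold CG in their fixed letters, which the rule favours. A match to a pattern with N can hold CG as well.

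Patterns known from promoters, which hold CG, were more frequent in members than in other distal regions. The GC box was found in 307 members (34.2%, exact binomial 95% interval 31.1 to 37.4), against 2.39% of other distal regions and 48.5% of island-like promoter regions. ETS was found in 4.91%, against 1.17% and 12.9%, and CRE in 1.56%, against 0.328% and 2.80%. NRF1 was found in 7 members (0.780%), against 0.0739% and 1.73%. In these 4 the members lay between other distal regions and island-like promoter regions. Members with the ETS pattern had median scores of 118.5 and 93.5, against 101 and 72 for those without.

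The CTCF pattern, of a factor that anchors chromatin loops, has no CG in its fixed letters. A match can still hold CG, as the printed one does. The pattern was found in 199 members (22.2%, 19.5 to 25.05), against 9.91% of other distal regions and 18.2% of island-like promoter regions. The member share was 18.4% under the rule of 55% GC and a ratio of 0.65, and 19.4% without replicate 2. Members with it had median scores of 106 and 79, against 99 and 71 without. The TFAP2 pattern GCCNNNGGC was found in 23.6%, against 7.26% and 27.4%. The fixed letters of both patterns are all G or C, which the rule favours. Their higher shares than in other distal regions cannot be told apart from the selection.

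Several patterns without CG in their fixed letters were less frequent in members than in other distal regions but more frequent than in island-like promoter regions. The proneural E-box CAGATG was found in 8.81% of members, against 24.99% of other distal regions and 4.91% of island-like promoter regions. The homeodomain pattern TAATTA was found in 2.34%, against 7.62% and 0.339%. The AP-1 pattern TGANTCA was found in 3.34%, against 7.34% and 1.62%. In all, 7 of the 20 patterns had this order. The rule asks for high GC, so it disfavours patterns that hold A and T, and their lower shares than in other distal regions cannot be told apart from the selection. Island-like promoter regions also had more GC than members (median 69% against 66%) and a higher CpG ratio (0.883 against 0.779). The part of this in the difference between members and promoter regions was not tested. RFX was among the patterns with this order, in 7 members (0.780%, against 1.20% and 0.354%), whose median scores were 136 and 118. One of the 7, near Sox12, scored 143 and 131. The TATA box TATAAA was found in 1.45% of members, 8.005% of other distal regions and 1.48% of island-like promoter regions.

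**Figure D5:**
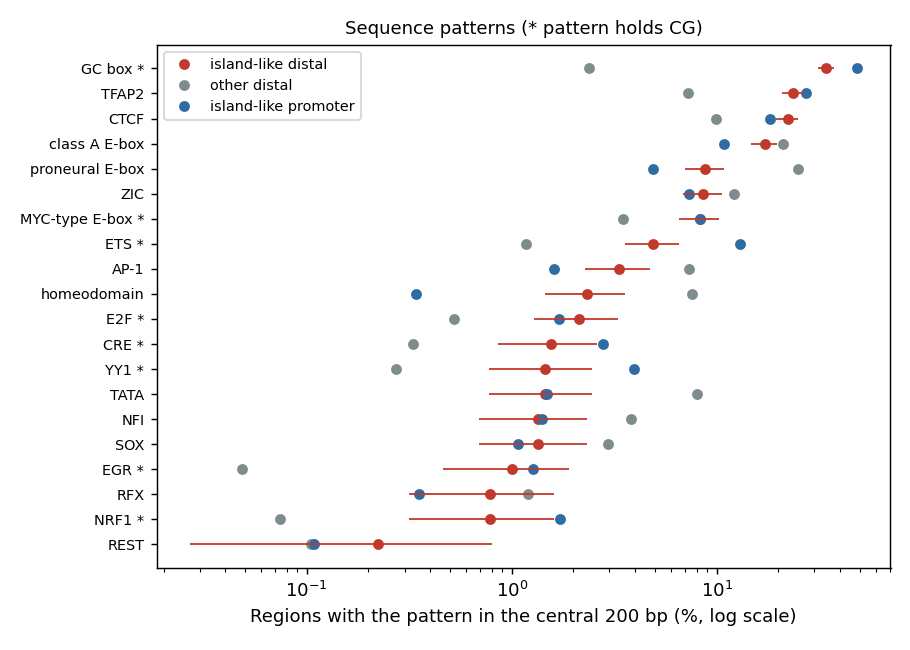
Share of island-like distal, other distal and island-like promoter regions with each of 20 sequence patterns in the central 200 bp (%, log scale), with exact binomial 95% intervals for island-like distal regions. Patterns with CG in their fixed letters carry an asterisk. Members lie between the other sets for the GC box (34.2%, against 2.39% of other distal and 48.5% of island-like promoter regions) and the CTCF pattern was found in 22.2%, against 9.91% and 18.2%.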

How the data were processed

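DNase-seq peaks and hotspots of 2 replicates of 1 group were used. Per the authors' file lists, they were called for each library separately from alignments on mm10, with replicates not pooled. Which aligner, caller and threshold were used is not stated in the sources used here. The deposited peak tables give a score per peak, and the deposited hotspot tables a −log10 q with a highest value of 100. No file gives read counts, so depth is unknown, and intervals (exact Clopper-Pearson, 95%) cover counting error only. The number of per-sample columns that belong to no sample was 0.

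Peak lists were merged at an overlap of 1 bp. Percentiles rank the highest score of a region among all peaks of its replicate. Base composition, repeats (soft-masking, 50%) and repeated 32 bp words came from the RefSeq genome (GRCm38.p6, the patch release of the same build). Starts and exons came from GENCODE M21, with RefSeq as an alternative. Python 3.11.15, numpy 2.4.6, pandas 2.3.3, scipy 1.17.1 and matplotlib 3.10.9 were used. Alternatives were a reciprocal overlap of 50%, the stronger peaks, a 500 bp window, another composition rule, 5000 bp from starts, no masked regions, autosomes, and each replicate left out. The code was tested on simulated regions with known answers. Named regions are the 10 members with the highest mean percentile, the 5 in the widest hotspots and the 5 with the highest CpG ratio. Named genes are the 10 nearest to most members, ties included, and up to 4 per list. The Meg3, Dlk1 and Sox12 positions were added after values were seen. The members, gene lists and patterns were chosen with earlier results of these data known. A gene that the naming rule would give is not reported here.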

Additional observations from a re-analysis of the deposited data

How the results depend on the processing

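No paired analysis was possible because the series has 1 group. Of 98 values recomputed over 10 results, 74 stayed within the tolerance set for their kind, 24 moved beyond it and 0 changed sign. Counts and single shares cannot be negative, so only the differences could have changed sign. The tolerance was 1 SD between replicates for score and width differences, the exact binomial interval of the members' or distal share for shares, and 1.5 times for counts. The values below include some that stayed within tolerance, and the cause of the moves was not tested. The difference in open stretches moved in every setting. The difference from island-like promoter regions and the number of patterns more frequent in members stayed within tolerance in every setting. With 1 replicate left out, hotspot width and the number of members also stayed within it, as did the intronic share without replicate 1. The score difference from other distal regions (28.2 percentile points) was 13.7 with stronger peaks, a cut that takes low percentiles out of both sets. It was 37.2 to 41.2 with 1 replicate left out, where a region no longer needs a peak of each. The difference in the share found in both replicates (27.6 points) was 17.8 with stronger peaks and 24.02 with GC of at least 55% and a ratio of at least 0.65. The difference in hotspot width (438 bp) was 595 bp with a 500 bp window, 336.5 bp with the 55% rule and 413 to 467 bp with 1 replicate left out. The intronic share (29.9%) was 26.4% beyond 5000 bp and 30.9% to 33.5% with 1 replicate left out. The number of members (897) was 488 with the 500 bp window and 926 to 1241 with 1 replicate left out. The difference in open stretches (−63.0 points) was −61.4 with a reciprocal overlap of 50%, −60.4 with stronger peaks, −77.0 with the 500 bp window, −57.1 with the 55% rule, −64.5 beyond 5000 bp, −41.5 without masked stretches and regions, −62.5 on autosomes, −64.7 with RefSeq starts and exons also kept away and −65.9 to −63.6 with 1 replicate left out. The difference from island-like promoter regions (−7.13 points) was −9.79 to −7.79 with 1 replicate left out. The number of patterns more frequent in members was 11 with either replicate left out, and 10 with the 500 bp window and with RefSeq also kept away. The CTCF share (22.2%) was 18.4% with the 55% rule and 19.4% without replicate 2, and the GC box share (34.2%) 27.7% with the 55% rule and 41.4% with the 500 bp window. The RefSeq alternative, with 647 members, was chosen after seeing the data. Peak tables without read counts limit all scores to ranks within a list.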
